A study of Mus musculus with 16 samples.

Results

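The BCL2 family is described here through 10 genes in donor T cells: 3 that hold death back (Bcl2, Bcl2l1 and Mcl1), the pore-forming effectors Bax and Bak1, and 5 genes of BH3-only proteins (Bcl2l11, Bbc3, Pmaip1, Bid and Bad). The genes were chosen by name, with no measured value in the rule, though earlier results of these data were known. All 10 were measured, out of 13697 features with a gene symbol and 22836 features in all. The cells came from mice given haematopoietic stem cells of a syngeneic or an allogeneic donor, a model of graft-versus-host disease in the ovary. CD8+ T cells were sorted from the spleen of syngeneic recipients (3 arrays), the spleen of allogeneic recipients (3 arrays) and the ovary of allogeneic recipients (4 arrays). CD4+ T cells were sorted from the same 3 sources, with 2 arrays each. All samples are labelled as female with a C57BL/6 strain background, no ovary of a syngeneic recipient is among them, and the donor and host strains of the allogeneic pairs, any conditioning and the day of harvest are not given in the sources used here. Nothing in the labels ties replicates to different animals, so each p-value reflects the spread among these arrays, which may be technical, and precision is set by how many arrays there are.

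Proteins of the BCL2 family decide whether a cell keeps its mitochondria sealed. BAX and BAK open the outer membrane and release cytochrome c, which starts the caspases, while BCL2, BCL-XL (the product of Bcl2l1) and MCL1 prevent this by binding them or the BH3-only proteins that set them off. In T cells, BCL2 and MCL1 are known for keeping resting cells alive under interleukin 7 and interleukin 15, BCL-XL is known to be induced by activation, and BIM (the product of Bcl2l11) is known for removing activated T cells once a response wanes.

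A level below is the log2 processed signal of a gene's probe minus the 75th percentile of its array, so 0 is the brightness of that percentile, and levels are compared between groups for 1 gene, not between genes. A difference of levels is given in log2 units ± standard error, from a limma model fitted to 22836 features over the 16 arrays. The words rose, fell, changed and called are kept for a Benjamini-Hochberg adjusted p under 0.05. The probes of the 10 genes were well above background on all 16 arrays, except that of Bcl2l11, which was so on 15 and missed the call in replicate 2 of the allogeneic splenic CD4 cells. The 75th percentile of the raw signal ran from 67.6 to 450 units and was lowest, at 67.6 and 68.2, in the second replicates of the allogeneic splenic and ovarian CD4 cells. All 8 T-cell markers looked at were well above background on every array. Cd4 was 22.3 to 47.2 times the percentile in CD4 arrays and 2.67 to 5.46 times it in CD8 arrays, and the summed Cd8a and Cd8b1 signal was 85 to 142 times it in CD8 arrays and 0.177 to 1.17 times it in CD4 arrays. The arrays lie on 2 slides and every group is on both, with 1 array of each CD4 group per slide, so that a CD4 value from a slide alone sets 1 array against another and its test takes the spread from other groups.

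**Figure D1:**
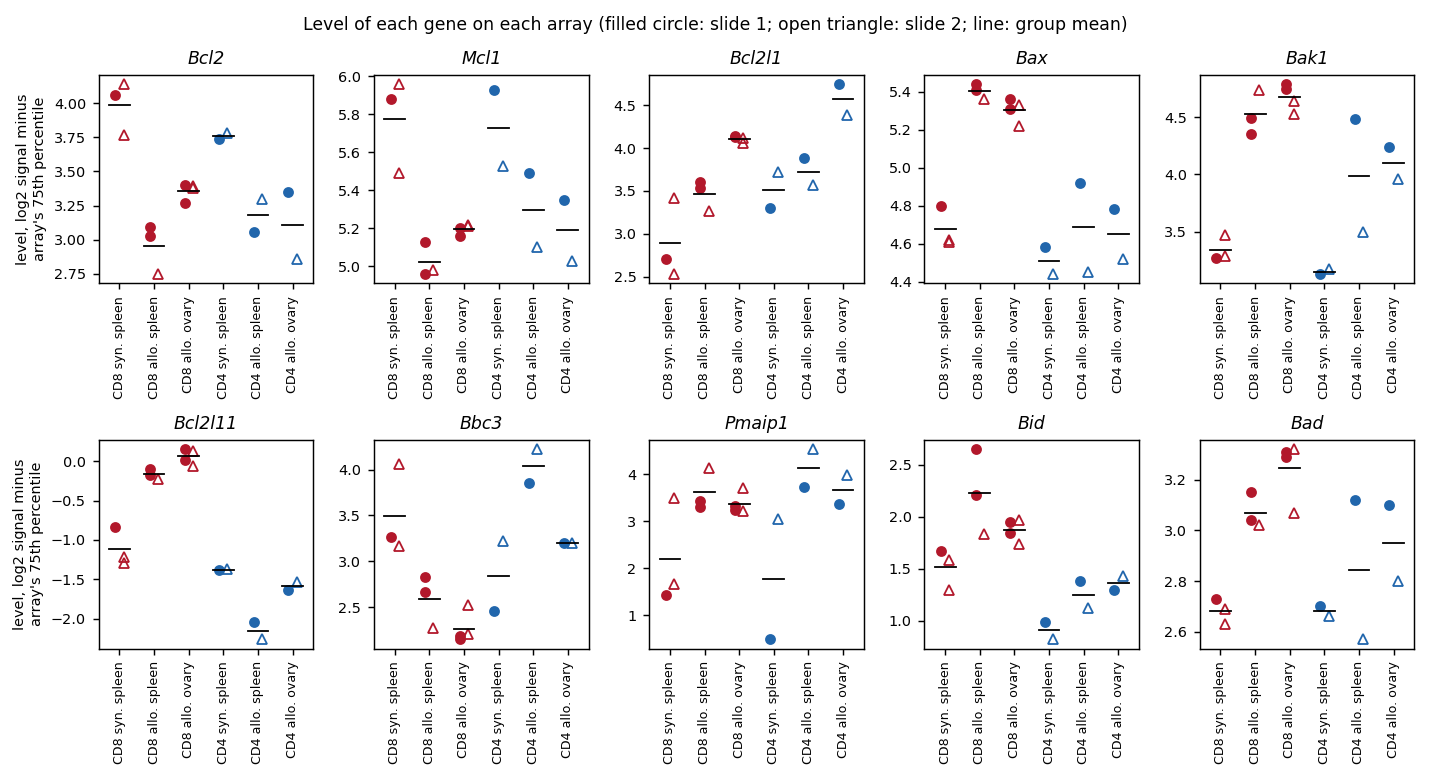
Level of each of the 10 genes (log2 signal minus the 75th percentile of the array) on each of the 16 arrays, with CD8 groups in red, CD4 groups in blue, slide 1 as filled circles, slide 2 as open triangles and the group mean as a line. Bcl2 and Mcl1 are highest in both syngeneic groups, Bcl2l11 in CD8 cells lies between -0.23 and 0.15 after allogeneic transplantation and between -1.29 and -0.83 after syngeneic transplantation, and Pmaip1 spreads widest in the syngeneic groups.

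Splenic CD8 cells of allogeneic recipients were compared with those of syngeneic recipients to ask how the donor cells differ when the host is foreign. Of the 10 genes, 7 changed, against 38.4% of all features tested. Bcl2 and Mcl1 fell, Bax and Bak1 rose, and of the BH3-only genes Bcl2l11 and Bid rose while Bbc3 fell. The median difference of the 10 genes was 0.65, beside -0.16 over all features. The arrays of the groups did not overlap for 8 of the 10 genes, against 53.4% of features.

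Bcl2, the survival gene first found at a lymphoma translocation, stood at 4.06, 3.77 and 4.14 on the syngeneic arrays and at 3.03, 3.09 and 2.75 on the allogeneic ones. Every allogeneic array was lower than every syngeneic one. Bcl2 fell by 1.04 ± 0.16 (adjusted p = 0.000294), a 2.05-fold decrease. Mcl1, a short-lived survival protein, stood at 5.88, 5.96 and 5.49 against 5.13, 4.96 and 4.98, again with no overlap, and fell by 0.75 ± 0.17 (adjusted p = 0.00383). A dimmer probe of Mcl1 gave -0.27 ± 0.20 (adjusted p = 0.292) in a fit of 31122 single probes. Bcl2l1 moved the other way without being called: its level was 2.71, 2.53 and 3.42 on syngeneic and 3.53, 3.61 and 3.26 on allogeneic arrays, a difference of 0.58 ± 0.22 (adjusted p = 0.0529). Replicate 3 of the syngeneic cells overlapped the allogeneic arrays. Without that array the difference was 0.85 ± 0.18 (adjusted p = 0.0045), and without the third allogeneic replicate 0.69 ± 0.24 (adjusted p = 0.0419). A dimmer probe of Bcl2l1 gave -0.04 ± 0.22 (adjusted p = 0.908).

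Of the effectors, Bax stood at 4.80, 4.61 and 4.62 on the syngeneic and at 5.44, 5.41 and 5.36 on the allogeneic arrays. The groups did not overlap, and Bax rose by 0.73 ± 0.14 (adjusted p = 0.00137). Bak1, the second pore former, rose by 1.18 ± 0.21 (adjusted p = 0.000916), from 3.27, 3.29 and 3.47 to 4.35, 4.49 and 4.74. Its call held in every alternative setting run over both slides.

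Of the BH3-only genes, Bcl2l11 stood at -0.83, -1.22 and -1.29 on the syngeneic arrays and at -0.10, -0.17 and -0.23 on the allogeneic ones. All 3 allogeneic arrays lay above all 3 syngeneic ones, a rise of 0.95 ± 0.14 (adjusted p = 0.000197). This value rests on 1 probe, since a second probe of Bcl2l11, which carries another transcript accession and was well above background on all 16 arrays, gave 0.02 ± 0.36 (adjusted p = 0.972). Within an array, the gap between Bcl2 and Bcl2l11 narrowed by 1.99 from syngeneic to allogeneic CD8 cells, and from syngeneic to allogeneic CD4 cells it moved by 0.19, to 5.33, both as descriptions with no test that rest on the brighter Bcl2l11 probe. Bid, whose protein links death receptors to mitochondria after cleavage, rose by 0.71 ± 0.19 (adjusted p = 0.0114), and without replicate 2 of the syngeneic cells by 0.60 ± 0.21, which was not called (adjusted p = 0.0526).

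Bbc3, the gene of PUMA and a target of p53 and FOXO factors, stood at 3.26, 3.17 and 4.06 on the syngeneic and at 2.66, 2.83 and 2.27 on the allogeneic arrays. The groups did not overlap, and Bbc3 fell by 0.91 ± 0.26 (adjusted p = 0.0164). It was not called without the third syngeneic replicate (-0.62 ± 0.24, adjusted p = 0.0694) or without the third allogeneic replicate (-0.75 ± 0.29, adjusted p = 0.0545). Pmaip1, the gene of NOXA, which neutralises MCL1, stood at 1.44, 1.67 and 3.50 on the syngeneic and at 3.31, 3.44 and 4.14 on the allogeneic arrays. The third syngeneic replicate lay among the allogeneic arrays, and the difference of 1.43 ± 0.62 was not called (adjusted p = 0.0875). It was 2.08 ± 0.58 without that array (adjusted p = 0.018), and 1.73 ± 0.49 with the slide as a block (adjusted p = 0.0157). Bad, a BH3-only gene controlled by survival kinases, differed by 0.39 ± 0.15 (adjusted p = 0.0603).

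The 7 called genes kept their direction on each slide alone. On slide 1 and slide 2 respectively, Bcl2 differed by -1.01 and -1.21, Mcl1 by -0.83 and -0.74, Bcl2l11 by 0.70 and 1.03, and Bbc3 by -0.51 and -1.34. Bax differed by 0.63 and 0.74, Bak1 by 1.15 and 1.36, and Bid by 0.76 and 0.39. These values rest on 1 syngeneic array on slide 1 and on 1 allogeneic array on slide 2. Markers of other cells moved with this comparison: 5 of 6 B-cell, 4 of 7 dendritic-cell and 2 of 8 macrophage markers fell, and 4 of 8 T-cell markers rose. The summed level of 6 B-cell markers was 14.4 to 23.3 times the percentile on syngeneic and 2.68 to 4.77 times it on allogeneic arrays. All 6 were well above background on every syngeneic array and 4 of 6 on every allogeneic array, and 0 were below background on all arrays of a group. The 7 dendritic-cell markers were H2-Aa, H2-Ab1, H2-Eb1, Cd74, Itgax, Flt3 and Siglech. H2-Aa, H2-Ab1, H2-Eb1 and Cd74 are MHC class II pathway genes and are not confined to dendritic cells. The summed level was 500 to 1061 on syngeneic and 86.7 to 487 on allogeneic arrays for dendritic-cell markers, 8.52 to 14.8 and 6.22 to 7.64 for macrophage markers, and 852 to 997 and 1148 to 1258 for T-cell markers. The part of these cells in the result was not tested. In sorted but bulk samples of this kind, fewer cells of a type and less RNA per cell cannot be told apart.

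**Figure D2:**
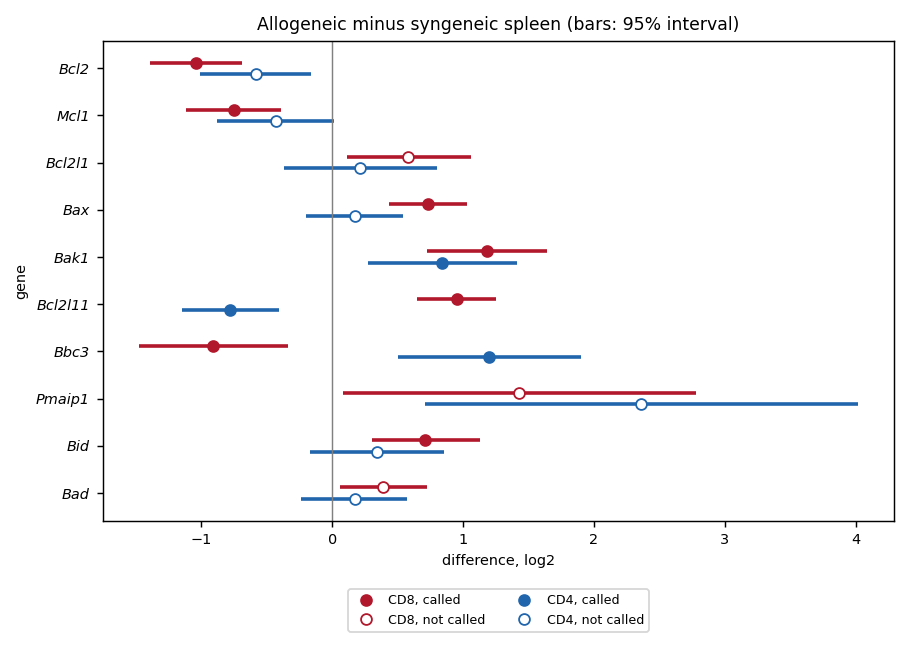
Difference between allogeneic and syngeneic spleen for each gene (log2 units on the horizontal axis), in CD8 cells (red) and CD4 cells (blue), with bars for the 95% interval and filled points for genes with an adjusted p under 0.05. Bcl2l11 lies at 0.95 in CD8 and at -0.78 in CD4 cells, Bbc3 at -0.91 and 1.20, while Bcl2, Mcl1 and Bak1 lie on the same side of 0 in both.

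Splenic CD4 cells were compared in the same way, with 2 arrays a group. Of the 10 genes, 3 changed, against 16.1% of features tested: Bak1 and Bbc3 rose and Bcl2l11 fell. The arrays of the groups did not overlap for 7 of the 10 genes, against 51.1% of features, and the median difference was 0.19, beside 0.04 over all features.

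Bcl2 stood at 3.74 and 3.78 on the syngeneic and at 3.06 and 3.30 on the allogeneic CD4 arrays. Both allogeneic arrays were lower, but the difference of -0.58 ± 0.20 was not called (adjusted p = 0.0631). With the slide as a block it was -0.58 ± 0.19 (adjusted p = 0.0482), and without the dimmest array of each allogeneic CD4 group -0.70 ± 0.20 (adjusted p = 0.0311). Mcl1 differed by -0.43 ± 0.21 (adjusted p = 0.175), with 5.93 and 5.53 against 5.49 and 5.10. Bcl2l1 differed by 0.21 ± 0.27 (adjusted p = 0.646), while its dimmer probe was called higher at 0.88 ± 0.27 (adjusted p = 0.0459).

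Bak1 rose by 0.84 ± 0.26 (adjusted p = 0.0469), from 3.13 and 3.17 to 4.48 and 3.50. The allogeneic arrays lay 0.99 apart, so that the value was 0.35 ± 0.20 without replicate 1 of the allogeneic cells (adjusted p = 0.267) and 1.33 ± 0.20 without replicate 2 (adjusted p = 0.000701). It was also not called without either syngeneic replicate (adjusted p = 0.194 without replicate 1 and 0.125 without replicate 2), or with the replicate number as a block (0.84 ± 0.27, adjusted p = 0.0664). Bax stood at 4.58 and 4.44 against 4.92 and 4.45, a difference of 0.17 ± 0.17 (adjusted p = 0.545).

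Bcl2l11 stood at -1.38 and -1.37 on the syngeneic and at -2.04 and -2.26 on the allogeneic CD4 arrays. Both allogeneic arrays were lower, and Bcl2l11 fell by 0.78 ± 0.17 (adjusted p = 0.00963). The probe was well above background on 1 of the 2 allogeneic arrays, replicate 1, whose size against the syngeneic array of its slide was 0.66. Without replicate 1 of the syngeneic cells the size was the same and the call was lost (adjusted p = 0.06), and the second Bcl2l11 probe gave -0.34 ± 0.44 (adjusted p = 0.673). Bbc3 stood at 2.46 and 3.22 against 3.85 and 4.22, with no overlap, and rose by 1.20 ± 0.32 (adjusted p = 0.0257). Its call was lost with normexp background correction and quantile normalization, and with no filter on dim probes. The call was also lost with estimated array weights and with the 2 groups fitted alone. The Bbc3 difference was 1.39 on slide 1 and 1.0 on slide 2. It was 0.82 ± 0.36 without replicate 1 of the syngeneic cells (adjusted p = 0.231) and 1.01 ± 0.39 without replicate 2 of the allogeneic cells (adjusted p = 0.101).

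Pmaip1 stood at 0.49 and 3.05 on the syngeneic and at 3.73 and 4.53 on the allogeneic CD4 arrays. Both allogeneic arrays were higher, but the syngeneic ones differed from each other by 2.56 log2 units. The difference of 2.36 ± 0.76 had an adjusted p of 0.0539, and was called with the slide as a block (2.36 ± 0.59, adjusted p = 0.0163) and without replicate 2 of the syngeneic cells (3.64 ± 0.71, adjusted p = 0.00844). It was 3.25 on slide 1 and 1.48 on slide 2. Bid and Bad differed by 0.34 ± 0.24 (adjusted p = 0.367) and 0.17 ± 0.19 (adjusted p = 0.599). The summed level of B-cell markers was 32.7 to 69.6 on syngeneic and 8.69 to 9.32 on allogeneic CD4 arrays, with 6 and 4 of 6 markers well above background on every array, and with Pax5 so on neither allogeneic array. That of 8 macrophage markers, all well above background, was 25.7 to 42.5 and 61.7 to 91.1. Of the B-cell markers 3 of 6 fell, 1 of 8 macrophage markers rose, 1 of 7 dendritic-cell markers fell and 3 of 8 T-cell markers rose, and their part in these differences was not tested.

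The transplant differences of CD8 and CD4 cells were set against each other by an interaction term, which was called for 2 of the 10 genes, against 11.9% of features. Bcl2l11 was higher in the CD8 difference by 1.72 ± 0.22 (adjusted p = 0.000759), having risen in CD8 and fallen in CD4 cells. Bbc3 was lower by 2.10 ± 0.41 in the same term (-2.10, adjusted p = 0.00862), having fallen in CD8 and risen in CD4 cells. The Bbc3 call was lost with normexp background correction and quantile normalization, and with its groups fitted alone. On slide 1 and slide 2 alone the terms were 1.36 and 1.92 for Bcl2l11 and -1.91 and -2.34 for Bbc3, not called on slide 2, where the Bcl2l11 value rests on the splenic CD4 array not well above background. The second Bcl2l11 probe gave 0.36 ± 0.57 (adjusted p = 0.719). For the other 8 genes the term was not called, and its 95% interval was -1.01 to 0.09 for Bcl2, -0.89 to 0.26 for Mcl1, and -0.39 to 1.07 for Bak1. It was -0.39 to 1.12 for Bcl2l1, 0.08 to 1.03 for Bax (adjusted p = 0.118), -0.29 to 1.04 for Bid, -0.30 to 0.74 for Bad and -3.07 to 1.21 for Pmaip1. Without replicate 1 of the allogeneic splenic CD4 cells, Bax (0.79 ± 0.19, adjusted p = 0.0215) and Bak1 (0.84 ± 0.24, adjusted p = 0.0371) were called as well.

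Both genes with opposite transplant differences hold the core TGTTTAC, a FOXO-type motif, in the 250 bases before 1 of their listed starts. Their stretches are shown for that reason. RefSeq promoter windows were found for 9 of the 10 genes, 15 windows in all. TGTTTAC was searched on both strands. It was found in 2 of the 15 windows, 1 of Bcl2l11 and 1 of Bbc3, beside 3.17% of all 32851 windows of that length. The motifs were chosen after the values had been seen, a match is not a site of binding, and FOXO binding was not measured. In the Bcl2l11 window (GRCm38.p6, chr2:128125788-128126037, plus strand, 250 bases that end at the gene's first listed start) the match reads GTAAACA. It begins 227 bases before that start and is in capitals. In the Bbc3 stretch (chr7:16310083-16310112, plus strand, 30 bases) the match begins 167 bases before the second of 3 listed starts. The window of the first listed Bbc3 start ends at 16309582, upstream of this stretch, and holds no match.
Bcl2l11: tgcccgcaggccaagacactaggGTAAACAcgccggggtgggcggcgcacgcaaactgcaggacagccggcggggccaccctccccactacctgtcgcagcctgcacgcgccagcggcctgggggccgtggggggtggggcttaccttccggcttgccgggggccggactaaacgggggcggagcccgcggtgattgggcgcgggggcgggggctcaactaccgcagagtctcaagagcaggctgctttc
Bbc3: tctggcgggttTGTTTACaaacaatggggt

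The GC box GGGCGG, searched on both strands, was in 10 of the 15 windows, from 7 genes, beside 32.7% of all windows. The bases G and C made up 54% to 81.6% of these 10 windows, beside a median of 52.4% over all windows. The share of all windows was not matched for base composition. The STAT-type letters TTCNNNGAA and the cyclic AMP element TGACGTCA were in 0 of the 15, beside 7.02% and 1.55% of all windows. Foxo1, 1 of 18 upstream regulators listed, is a factor known to bind a FOXO-type core. From syngeneic to allogeneic spleen it fell in CD8 cells by 1.12 ± 0.17 (adjusted p = 0.000282) and in CD4 cells by 1.45 ± 0.21 (adjusted p = 0.000813). Foxo1 thus fell in both subsets, while Bcl2l11 and Bbc3 each moved in opposite directions in them. A link between Foxo1, the motif and these genes was not tested.

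Ovarian cells were compared with splenic cells of allogeneic recipients to ask what sets donor cells of the attacked organ apart from those of the spleen. The splenic arrays are the allogeneic arrays of the transplant comparison, so the values of both share them. In CD8 cells limma called 0 of the 10 genes, against 0.53% of features, and 2 had an unadjusted p under 0.05, against 8.31%. The arrays did not overlap for 4 genes, against 12.6% of features. Bcl2l1 stood at 4.14, 4.13, 4.06 and 4.12 in the ovary and at 3.53, 3.61 and 3.26 in the spleen. All 4 ovarian arrays were higher, by 0.64 ± 0.21 (unadjusted p = 0.00854, adjusted p = 0.315), with 0.56 on slide 1 and 0.83 on slide 2. Bcl2 stood at 3.27, 3.40, 3.39 and 3.38 in the ovary, above all 3 splenic arrays, with a difference of 0.41 ± 0.15 (unadjusted p = 0.0188, adjusted p = 0.437). Mcl1 and Bcl2l11 also did not overlap, with differences of 0.17 ± 0.16 and 0.23 ± 0.13. Bid differed by -0.35 ± 0.18, Bbc3 by -0.32 ± 0.25, Pmaip1 by -0.26 ± 0.58, Bax by -0.10 ± 0.13, Bak1 by 0.15 ± 0.20 and Bad by 0.18 ± 0.14, and the widest interval was that of Pmaip1 (-1.53 to 1.0). With estimated array weights, in a fit that gave a convergence warning, 8 of the 10 genes were called in CD8 cells, against 46.6% of features.

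In CD4 cells limma called 0 of the 10 genes, against 0.906% of features, and 3 had an unadjusted p under 0.05, against 15.7%. The arrays did not overlap for 3 genes, against 33.7% of features. Bcl2l1 was 4.75 and 4.39 in the ovary against 3.88 and 3.57 in the spleen. It was higher on both ovarian arrays, by 0.85 ± 0.27 (adjusted p = 0.171), while its dimmer probe gave 0.05 ± 0.27. Bcl2l11 was -1.64 and -1.53 against -2.04 and -2.26, a difference of 0.57 ± 0.17 (adjusted p = 0.151). Bbc3 was 3.20 on both ovarian arrays against 3.85 and 4.22, a difference of -0.84 ± 0.32 (adjusted p = 0.236). The other 7 genes differed by -0.46 ± 0.76 for Pmaip1, -0.10 ± 0.21 for Mcl1, -0.08 ± 0.20 for Bcl2, -0.03 ± 0.17 for Bax, 0.10 ± 0.19 for Bad, 0.11 ± 0.26 for Bak1 and 0.11 ± 0.24 for Bid. The interaction of tissue and subset was called for 0 of the 10 genes and for 0 of all features (0% called), with 0 of the 10 genes at an unadjusted p under 0.05, against 11.1% of features. Its values ran from -0.47 ± 0.30 for Bid, -0.34 ± 0.21 for Bcl2l11, -0.20 ± 0.34 for Bcl2l1 and -0.07 ± 0.21 for Bax through 0.04 ± 0.33 for Bak1, 0.07 ± 0.23 for Bad, 0.20 ± 0.96 for Pmaip1 and 0.27 ± 0.26 for Mcl1 to 0.48 ± 0.25 for Bcl2 and 0.51 ± 0.40 for Bbc3. B-cell markers summed to 1.2 to 2.19 in ovarian CD8 and 1.52 to 1.74 in ovarian CD4 cells, with 1 and 5 of the 6 well above background on no array. Against the spleen, 1 of 6 was lower in CD8 and 3 of 6 in CD4 cells, while 1 of 8 macrophage markers was higher and 1 of 7 dendritic-cell markers lower in CD8 cells. Of 8 granulosa-cell markers, 3 were well above background on every ovarian CD8 array and 4 on every ovarian CD4 array. Their summed level was 18.9 to 22.5 in ovarian and 19.8 to 21.2 in splenic allogeneic CD8 cells. In CD4 cells it was 30.7 to 30.8 against 24.5 to 26.8. Of 5 granulosa-cell markers tested, 1 was higher in the ovary in each subset and 0 were lower (medians 0.94 in CD8 and 1.60 in CD4 cells). Of 5 theca and luteal markers tested, 2 were higher in CD8 and 1 in CD4 cells, with 0 lower (medians 1.30 and 0.13). Cyp11a1 and Hsd3b1 were well above background on no splenic array, but were so in each ovarian group. The part of these markers in the result was not tested.

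**Figure D3:**
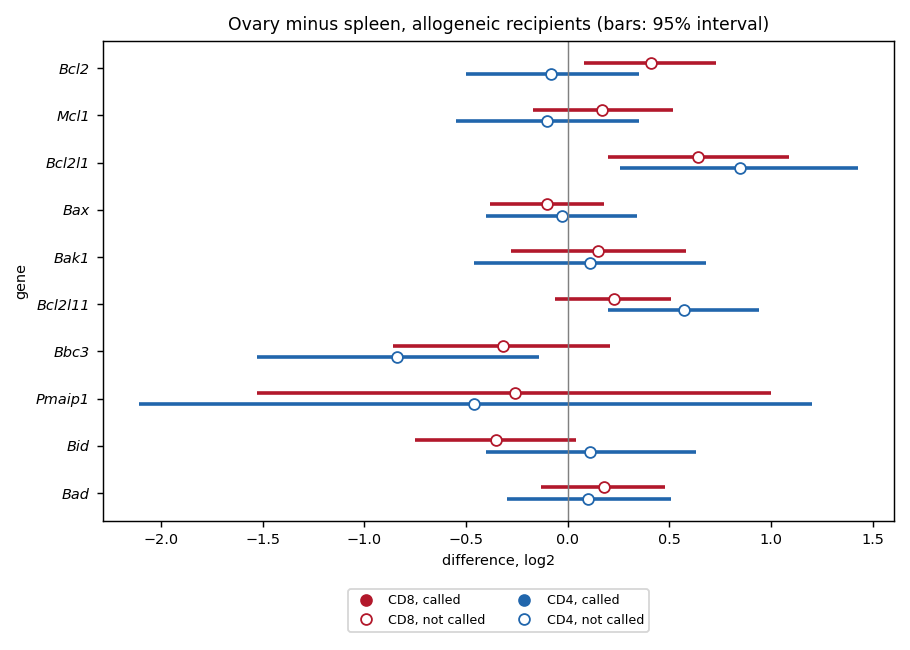
Difference between ovary and spleen of allogeneic recipients for each gene (log2 units), in CD8 (red) and CD4 cells (blue), with bars for the 95% interval. Every point is open, since 0 of the 10 genes had an adjusted p under 0.05, and the points of Bcl2l1 lie at 0.64 in CD8 and 0.85 in CD4 cells.

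CD8 and CD4 cells were compared within each source. In the ovary 3 of the 10 genes were called, against 17.5% of features: Bcl2l11 and Bax were higher in CD8 cells and Bbc3 was lower. The arrays did not overlap for 6 genes there, against 47.9% of features. In the spleen of allogeneic recipients the count was 4, against 29.4% of features, with Bcl2l11, Bax and Bid higher and Bbc3 lower in CD8 cells, and 4 genes did not overlap, against 49.2%. In the spleen of syngeneic recipients limma called 0, against 4.14% of features, with 3 genes at an unadjusted p under 0.05 (Bid, Bcl2l1 and Bbc3), against 14.2% of features. There 4 genes did not overlap, against 34.3%. The ovarian and splenic comparisons use different arrays. The splenic arrays are also those of the transplant comparisons and their interaction, and the ovarian arrays those of the ovary against spleen comparisons. The subset values are therefore not independent of those given above.

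Bcl2l11 was higher in CD8 cells by 1.64 ± 0.15 in the ovary (adjusted p = 3.35e-05), by 1.98 ± 0.16 in the allogeneic spleen (adjusted p = 1.02e-05) and by 0.26 ± 0.16 in the syngeneic spleen (adjusted p = 0.525). In the ovary its 4 CD8 arrays read 0.02, 0.15, 0.13 and -0.06 and its CD4 arrays -1.64 and -1.53. The groups lay more than 1 log2 unit apart. The second Bcl2l11 probe gave 1.01 ± 0.38 in the ovary (adjusted p = 0.0975) and 0.79 ± 0.40 in the allogeneic spleen (adjusted p = 0.162), in the same direction and not called. Bax was higher by 0.65 ± 0.15 in the ovary (adjusted p = 0.0114) and 0.72 ± 0.16 in the allogeneic spleen (adjusted p = 0.00567). In the ovary Bax stood at 5.36, 5.31, 5.22 and 5.33 in CD8 and at 4.78 and 4.52 in CD4 cells, with no overlap. Without replicate 2 of the ovarian CD4 cells its difference was 0.52 ± 0.19 and was not called (adjusted p = 0.132).

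Bid was higher in CD8 cells of the allogeneic spleen by 0.98 ± 0.21 (adjusted p = 0.006), and by 0.51 ± 0.20 in the ovary, not called (adjusted p = 0.104). Bbc3 was lower in CD8 cells by 1.45 ± 0.29 in the allogeneic spleen (-1.45, adjusted p = 0.00399) and differed by -0.93 ± 0.28 in the ovary (adjusted p = 0.0383). Both calls were lost with normexp background correction and quantile normalization. The splenic call was also lost with array weights and with the 2 groups fitted alone. The ovarian call was also lost with no filter on dim probes and with the replicate number as a block. The ovarian Bbc3 arrays read 2.18, 2.15, 2.52 and 2.21 in CD8 and 3.20 and 3.20 in CD4 cells. They did not overlap, but the call was lost without any 1 of 5 of these 6 arrays: the adjusted p was 0.0821, 0.086 and 0.0791 without CD8 replicates 1, 2 and 4, and 0.114 and 0.183 without CD4 replicates 1 and 2. The other genes were not called between subsets in any source. In the ovary, the allogeneic spleen and the syngeneic spleen, Bcl2 differed by 0.26 ± 0.17, -0.23 ± 0.18 and 0.23 ± 0.18, and Mcl1 by 0.01 ± 0.18, -0.27 ± 0.19 and 0.05 ± 0.19. In the same order Bcl2l1 differed by -0.46 ± 0.23, -0.26 ± 0.25 and -0.62 ± 0.25, Bak1 by 0.58 ± 0.23, 0.54 ± 0.24 and 0.19 ± 0.24, and Pmaip1 by -0.30 ± 0.66, -0.50 ± 0.69 and 0.43 ± 0.69. Bad differed by 0.30 ± 0.16 in the ovary, 0.23 ± 0.17 in the allogeneic spleen and under 0.01 in the syngeneic spleen, where Bax, Bid and Bbc3 differed by 0.16 ± 0.16, 0.61 ± 0.21 and 0.66 ± 0.29. Without replicate 1 of the allogeneic splenic CD4 cells, Bak1 (1.03 ± 0.19, adjusted p = 0.003) and Bad (0.50 ± 0.16, adjusted p = 0.0362) were also called in that spleen. Without replicate 3 of the syngeneic splenic CD8 cells, Bcl2l1 was called there (-0.89 ± 0.20, adjusted p = 0.0296). On slide 2 alone Bcl2l11 differed by 1.57 in the ovary and 2.03 in the allogeneic spleen, beside 1.72 and 1.90 on slide 1. Each of these values rests on 1 CD4 array. The 8 macrophage markers summed to 6.22 to 14.8 over all CD8 and 25.7 to 148 over all CD4 arrays, and 8, 8 and 5 of the 8 were lower in CD8 cells of the ovary, the allogeneic spleen and the syngeneic spleen. Of 6 B-cell markers 1, 4 and 0 were lower there. Of 7 dendritic-cell markers 4 were lower and 1 higher in ovarian CD8 cells, and 2 were higher in the allogeneic spleen. The part of these markers in the differences was not tested.

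**Figure D4:**
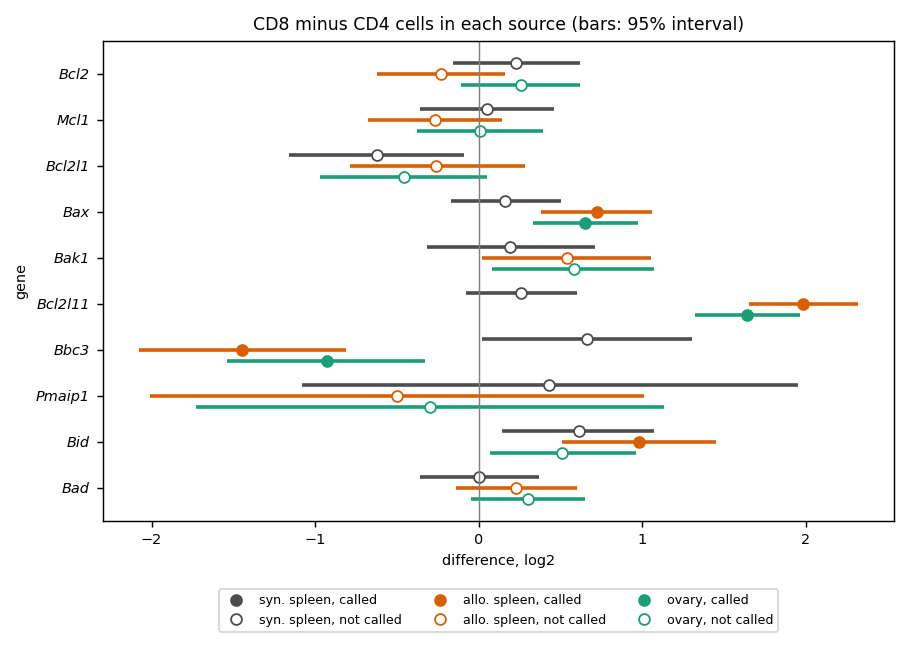
Difference between CD8 and CD4 cells for each gene (log2 units) in the syngeneic spleen (grey), the allogeneic spleen (orange) and the ovary (green), with bars for the 95% interval and filled points for an adjusted p under 0.05. Bcl2l11 lies at 0.26, 1.98 and 1.64, and Bbc3 at 0.66, -1.45 and -0.93.

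Over the 6 groups, ordered by their own means, the brighter Bcl2l11 probe showed no overlap between neighbours. The share of all features with such an order was not counted, so the order does not set Bcl2l11 apart. The highest syngeneic CD4 array was -1.37 and the lowest syngeneic CD8 array -1.29. For allogeneic splenic and ovarian CD8 cells these values were -0.10 and -0.06. Between these pairs of groups 34.3% and 12.6% of features did not overlap. The mean of the brighter probe went from -2.15 in allogeneic splenic CD4 through -1.59 in ovarian CD4 to -1.38 in syngeneic CD4 cells. From there it went through -1.12 in syngeneic CD8 and -0.17 in allogeneic splenic CD8 to 0.06 in ovarian CD8 cells. The steps from allogeneic splenic to ovarian CD4, from syngeneic CD4 to CD8 and from allogeneic splenic to ovarian CD8 cells were not called. The second Bcl2l11 probe overlapped, with -1.42 to -0.96 in syngeneic and -1.51 to -0.40 in allogeneic splenic CD8 cells. Bcl2 ran from 2.95 in allogeneic splenic CD8 through 3.10 in ovarian CD4, 3.18 in allogeneic splenic CD4 and 3.36 in ovarian CD8 to 3.76 in syngeneic CD4 and 3.99 in syngeneic CD8 cells. Of its 5 pairs of neighbours, 1 did not overlap, that of ovarian CD8 and syngeneic CD4 cells. Mcl1 had its 1 break in the same place, between allogeneic and syngeneic groups, with all 4 allogeneic groups between 5.02 and 5.29 and the syngeneic groups at 5.73 and 5.78, although allogeneic splenic CD4 arrays reached 5.49 and the lowest syngeneic CD8 array was also 5.49. The other probe of Mcl1 had its highest mean, 3.85, in ovarian CD4 cells. On its brighter probe, Bcl2l1 had its 2 highest groups in the ovary (4.11 in CD8 and 4.57 in CD4 cells). They lay apart from each other and from the 4 splenic groups, though neither ovary difference was called. On the other Bcl2l1 probe ovarian CD8 cells had a mean of -1.81, below allogeneic splenic CD4 cells at -0.95, and ovarian CD4 cells one of -0.90. Bak1 was lowest in the syngeneic groups (3.15 in CD4 and 3.35 in CD8 cells), and Bax and Bid were highest in the allogeneic CD8 groups. For Bad, Bbc3 and Pmaip1, all 5 pairs of neighbours overlapped.

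Among 9749 named genes well above background on all 16 arrays, those most like Bcl2l11 over the arrays were Uchl5, Gpd2, Acoxl, Cc2d1a and Igf2r, each with Pearson r = 0.97, given as a description since the 16 points share their groups. Acoxl is the coding gene before Bcl2l11 in the RefSeq table and overlaps it there. It rose in CD8 cells by 1.83 ± 0.20 (adjusted p = 2.15e-05) and fell in CD4 cells by 0.85 ± 0.25 (adjusted p = 0.0378) from syngeneic to allogeneic spleen. Whether probes of these overlapping genes pick up each other's RNA was not tested. Most like Bcl2 were Rps19 (r = 0.91), Ivd and Prdm9 (0.90), Il4i1 (0.89) and Rapgef6 (0.88), and among those most like Mcl1 were Kmt2c (0.97), Prkd2 (0.96), and Rassf2 and Tnik (0.94).

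Of the 10 genes, 4 have 2 probes, and these differed most for Bcl2l11 and Bcl2l1. The dimmer Bcl2l1 probe was lower in CD8 than CD4 cells by 1.37 ± 0.24 in the allogeneic spleen (-1.37, adjusted p = 0.00221) and by 0.92 ± 0.23 in the ovary (-0.92, adjusted p = 0.021), where the brighter probe gave -0.26 ± 0.25 and -0.46 ± 0.23. The dimmer Bad probe was higher in CD8 cells of the allogeneic spleen at 1.07 ± 0.34 (adjusted p = 0.0357), beside 0.23 ± 0.17 from the brighter one.

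**Figure D5:**
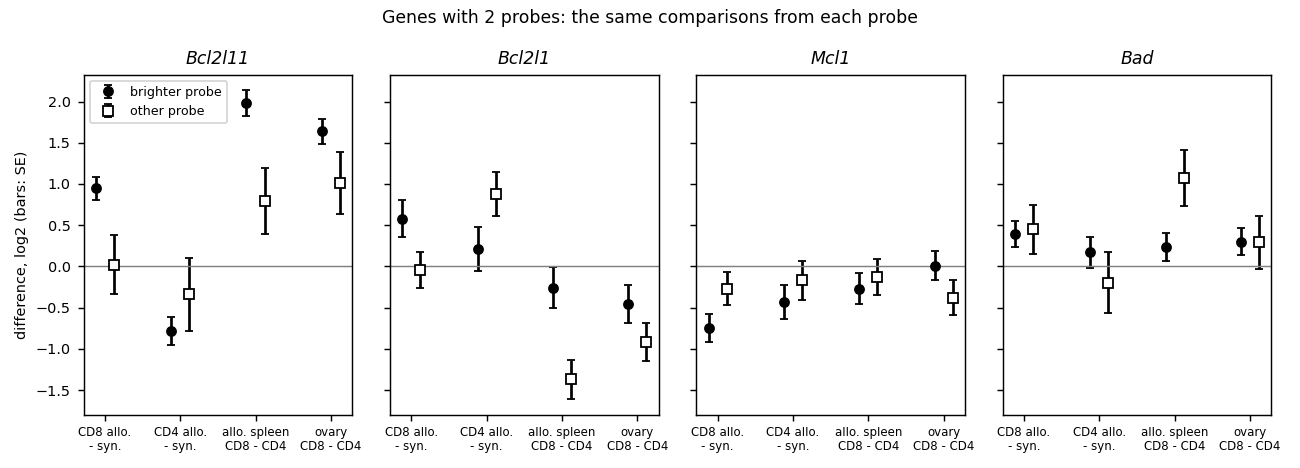
Differences (log2 units, bars for the standard error) in 4 comparisons from the brighter probe (filled circles) and the other probe (open squares) of the 4 genes with 2 probes. For Bcl2l11 the brighter probe lies at 0.95 and the other at 0.02 in the CD8 transplant comparison.

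Other genes of the pathway were counted from lists. Of 10 measured further BCL2 family genes, 4 rose and 3 fell in CD8 cells from syngeneic to allogeneic spleen, beside 38.4% of all features called (median 0.32, beside -0.16 over all features). Bcl2a1d, a survival gene induced by activation, rose by 2.03 ± 0.31 (adjusted p = 0.000275). Bok, a BAX-like effector, was well above background on 0 of 3 syngeneic arrays and was at least 6.65-fold higher on the allogeneic ones. The limma call of Bok (adjusted p = 4.95e-06) used its measured syngeneic signal and does not test this bound. For this bound the syngeneic arrays were each given the dimmest signal among their probes well above background. Bcl2l2, which encodes BCL-W, rose by 1.81 ± 0.36 (adjusted p = 0.00167), and Bnip3, a mitophagy receptor, fell by 1.03 ± 0.20 (adjusted p = 0.00126). In CD4 cells 3 of 10 rose and 0 fell, beside 16.1% of features called: Bcl2a1d by 1.71 ± 0.38, Bcl2l2 by 1.73 ± 0.44 and Bcl2l14 by 1.76 ± 0.47. Bcl2l14 fell in CD8 cells by 1.64 ± 0.39 (adjusted p = 0.00536), and its interaction term was -3.40 ± 0.61 (adjusted p = 0.00549).

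Downstream of the mitochondria, 6 of 13 genes of caspases, their activators and their inhibitors rose and 0 fell in CD8 cells (median 0.33), beside 38.4% of features called. Apaf1, the scaffold of the apoptosome, rose by 1.74 ± 0.19 (adjusted p = 1.57e-05), and Cycs, cytochrome c, by 0.94 ± 0.14. In CD4 cells 2 of 13 rose, beside 16.1% of features called, among them Apaf1 by 1.08 ± 0.23 (adjusted p = 0.008). Of 10 death receptor genes, 3 rose and 1 fell in CD8 cells and 2 fell in CD4 cells, shares near the 38.4% and 16.1% of all features called. Fasl, the ligand of FAS, rose in CD8 cells by 4.91 ± 0.33 (adjusted p = 3.41e-07). Tnfrsf1a, a receptor for tumour necrosis factor, rose by 1.0 ± 0.19 in CD8 and fell by 0.75 ± 0.23 in CD4 cells, with an interaction term of 1.75 ± 0.30 (adjusted p = 0.00403). Tnfrsf10b, a TRAIL receptor, fell in both, by 1.41 ± 0.20 and 0.87 ± 0.24.

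Of 18 upstream regulators, 4 rose and 5 fell in CD8 cells (38.4% of all features called) and 2 rose and 1 fell in CD4 cells (16.1%). Il2rb, the shared beta chain of the interleukin 2 and 15 receptors, rose by 2.44 ± 0.21 in CD8 and 1.30 ± 0.26 in CD4 cells. Il7r, the interleukin 7 receptor, fell by 1.98 ± 0.24 in CD8 cells (adjusted p = 3.71e-05) and was the 1 gene of the 4 lists called between ovary and spleen. It was lower in the ovary by 1.21 ± 0.22 in CD8 (-1.21, adjusted p = 0.0324) and by 1.92 ± 0.29 in CD4 cells (-1.92, adjusted p = 0.0138). In the ovary against spleen comparisons 0 of the further BCL2 family, caspase and death receptor genes were called. The smallest p were those of Bok and Bcl2l14 in CD8 cells (-1.34 ± 0.41 and 1.04 ± 0.36, adjusted p = 0.263 and 0.384) and of Cflar in CD4 cells (-0.72 ± 0.20, adjusted p = 0.125).

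Between subsets, Il7r was lower in CD8 than CD4 cells by 1.89 ± 0.25 in the ovary (-1.89) and 2.61 ± 0.26 in the allogeneic spleen (-2.61), and Il2rb was higher by 1.0 ± 0.23 and 1.26 ± 0.24. Of the upstream regulators 2 were called higher and 2 lower in the ovary, and 2 higher and 3 lower in the allogeneic spleen, beside 17.5% and 29.4% of all features called. Of the caspase list 2 were higher and 1 lower in the ovary, and 4 higher and 1 lower in the allogeneic spleen, with Cycs higher in both (0.63 ± 0.15 and 0.98 ± 0.16). Fasl was higher in CD8 cells by 2.45 ± 0.35 in the ovary (adjusted p = 0.00084) and by 2.54 ± 0.37 in the allogeneic spleen (adjusted p = 0.000599), and lower by 1.81 ± 0.37 in the syngeneic spleen (-1.81, adjusted p = 0.0143). Of the 10 further BCL2 family genes 1 was higher and 1 lower in ovarian CD8 than CD4 cells: Bmf, a BH3-only gene, by 1.20 ± 0.38 (adjusted p = 0.0488), and Bnip3 by -0.71 ± 0.21 (adjusted p = 0.0359).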

How the data were processed

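The deposited scanner tables hold spot intensities; their headers name Agilent Feature Extraction 11.5.1.1. RNA of double-sorted cells was amplified and labelled with Cy3, per the labels' protocols. The deposited series matrix holds log2 values, found here to be the same signals shifted and centred per probe. The log2 processed signal was shifted by each array's 75th percentile, flagged spots were left out, and a probe was kept where every array of some group had it well above background (31122 of 55681). Probes were named by accession through a RefSeq table (GRCm38.p6), and the probe with the highest mean stood for its gene. One limma 3.58.1 model (R 4.3.3) with 6 group means was fitted over the 16 arrays, with 10 residual and 2.16 prior degrees of freedom. It was tested on simulated data. The 10 genes are named in every comparison, other listed genes by smallest p. Members and lists were chosen with earlier results of these data known. Alternatives are in the closing section; those on the dimmest arrays, a common floor of -2.5 and a gene's other probe were added after seeing the data. Protein and probe sequences were not used here. Single values of some listed genes are not reported here.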

Additional observations from a re-analysis of the deposited data

Results flagged for a closer look

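In the 4 ovarian CD8 arrays, 1 array stood apart from the other 3 for 3 of the 10 genes, by the gap to its nearest neighbour as a share of the group's range. The share was 0.862 for Bcl2, lowest in replicate 1 at 3.27. It was 0.887 for Bad, lowest in replicate 3 at 3.07, and 0.831 for Bbc3, highest in replicate 3 at 2.52. Chance gives about 1 in 20 such groups, and only this group has enough arrays for the measure. The transplant difference of Bcl2l11 was 1.72 higher in CD8 than in CD4 cells, and that of Bbc3 differed by -2.10, each by a test of the interaction.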

How the results depend on the processing

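Over the members and comparisons, 1742 alternative values kept their direction and side of the threshold or were uncalled in both, 58 gained a call, 76 lost one and 0 reversed a call. Of the counts of genes called over both slides, that in the CD4 transplant comparison (3) was 1 with no filter on dim probes, beside 6.74% of features. It was 5 with the slide as a block (22% of features), 0 with array weights (4.14%) and 0 with the 2 groups fitted alone (0.0307%). For the ovarian CD8 against CD4 comparison (3) it was 1 with normexp (14.3%) and 5 with the 2 groups fitted alone (23.8%). For the allogeneic spleen (4) it was 1 with the 2 groups alone (4.71%). In the syngeneic spleen (0) array weights called 1 (7.19%). The transplant interaction (2) gave 1 with a filter on every array (17.4%) and 1 with its groups fitted alone (4.35%). With normexp Bbc3 lost its interaction call and Bcl2 gained one. Between ovary and spleen (0 in both subsets) array weights called 8 in CD8 cells (6 higher and 2 lower, beside 46.6% of features). On slide 1, Bcl2l1 was 4.75 on the 1 ovarian and 3.88 on the 1 allogeneic splenic CD4 array. The fit of array weights gave a convergence warning. A slide alone has 1 array of each CD4 group, so that its CD4 comparisons set 1 array against another with the spread of other groups. In the CD8 transplant comparison slide 1 has 1 syngeneic array and slide 2 has 1 allogeneic array. Counts from a slide alone are therefore not given here, and the causes of the moved counts were not tested. Filtering on every array removes the brighter Bcl2l11 probe, so its calls then rest on the other one.

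Leaving out each array in turn gave 6 to 8 called genes in the CD8 and 0 to 3 in the CD4 transplant comparison, 1 to 3 between ovarian subsets, 4 to 6 in the allogeneic and 0 to 1 in the syngeneic spleen, 2 to 4 for the transplant interaction, and 0 between ovary and spleen and for the tissue interaction. The count of 0 came without replicate 1 of the syngeneic CD4 cells, the 1 between ovarian subsets without replicate 2 of the ovarian CD4 cells, the 1 in the syngeneic spleen without replicate 3 of its CD8 cells, and the 4 of the interaction without replicate 1 of the allogeneic splenic CD4 cells. A lone array was assumed to vary like the other groups. Leaving out a CD4 array leaves 1 in its group, so the share of features called is given for CD8 arrays left out. It was 30.2% to 42.2% in the CD8 transplant comparison and 0.215% to 1.15% between ovarian and splenic CD8 cells. Between subsets it was 10.9% to 17.4% in the ovary, 19.7% to 34.3% in the allogeneic and 2.66% to 4.16% in the syngeneic spleen. For the transplant interaction it was 7.06% to 18.5%. From syngeneic to allogeneic CD8 cells the median feature shifted by -0.16.

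Replicate numbers are shared by the groups. Same-numbered CD8 samples correlated in their deviations at 0.0654, 0.164 and 0.322 between ovary and spleen and at 0.246, 0.0498 and 0.334 between transplants, so not every pair exceeded 0.1. The CD4 groups have 2 arrays, whose deviations mirror each other, with 0.234 between ovary and spleen and 0.201 between transplants. The numbers were not taken to pair samples. With the replicate block the counts of called genes were 8 and 3 in the CD8 and CD4 transplant comparisons (42.4% and 16.8% of features). Between subsets they were 2, 4 and 0 in ovary, allogeneic and syngeneic spleen (17.1%, 36.6% and 3.87%). The transplant interaction gave 2 (14.6%), and the others gave 0 (at most 0.464%). The block ended the calls of Bak1 in the CD4 transplant comparison and of Bbc3 between ovarian subsets, and gained Pmaip1 in both transplant comparisons.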
